A study of Mus musculus with 192 samples.

Results

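The 4 genes described here, Krt7, Krt8, Krt18 and Krt19, encode keratins of simple epithelia and were chosen by name, 4 of 24264 genes in the deposited table. The study counted RNA molecules of R1 mouse embryonic stem (ES) cells, captured singly in the 96 chambers (wells) of 1 microfluidic chip. The cells came from 1 culture, grown on irradiated feeder fibroblasts, separated from them by settling, freed of dead and early apoptotic cells, and frozen. The labels give no treatment, genotype or time group, so every value comes from 1 sample, no test was possible between conditions, and no p-value was computed. Spreads are spreads between wells of that culture, and intervals cover counting error only.

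Keratins are the intermediate filament proteins of epithelial cells. A filament is built from pairs of an acidic type I chain and a basic type II chain, and an unpaired chain is degraded. Krt8 and Krt7 are type II and Krt18 and Krt19 are type I. Krt8 and Krt18 are the usual pair of simple epithelia such as liver and gut, and in the mouse embryo they are among the early keratins, made in trophectoderm and in extraembryonic endoderm. Undifferentiated ES cells are known for low keratin levels, and differentiating ones can raise them. Krt7 and Krt19 accompany the pair in ducts, trophoblast and other simple epithelia.

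Krt7, Krt8 and Krt18 lie in the type II keratin cluster on chromosome 15 and Krt19 lies in the type I cluster on chromosome 11. Krt18 is the exception to this arrangement, a type I gene beside the type II genes. In GENCODE M21 on GRCm38, Krt7 (ENSMUSG00000023039) runs over chr15:101411043-101430313 on the plus strand and Krt8 (ENSMUSG00000049382) over chr15:101996698-102004482 on the minus strand. Krt18 (ENSMUSG00000023043) runs over chr15:102028180-102032027 on the plus strand, 23697 bases from Krt8 and pointing away from it. Krt19 (ENSMUSG00000020911) runs over chr11:100140810-100148665 on the minus strand.

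The promoters are shown because Krt8 and Krt18 were highest in the same wells, and because Krt7 shares their cluster. The 250 bases before the RefSeq start on GRCm38.p6 follow, for Krt7 (chr15:101412153-101412402, plus strand), Krt8 (chr15:102004343-102004592, minus strand) and Krt18 (chr15:102027966-102028215, plus strand), each 5′ to 3′ on the gene's strand. The GENCODE spans start farther out than RefSeq's, so the Krt7 window lies inside the GENCODE gene and the Krt8 and Krt18 windows overlap theirs in part. Capitals mark the E-box letters CACCTG and the GC-box letters GGGCGG, the latter also as CCGCCC where they lie on the opposite strand.
Krt7: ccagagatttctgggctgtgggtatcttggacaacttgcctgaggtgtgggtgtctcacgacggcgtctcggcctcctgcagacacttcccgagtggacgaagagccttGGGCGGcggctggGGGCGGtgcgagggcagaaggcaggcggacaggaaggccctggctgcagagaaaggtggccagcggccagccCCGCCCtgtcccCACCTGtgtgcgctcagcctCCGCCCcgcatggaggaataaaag
Krt8: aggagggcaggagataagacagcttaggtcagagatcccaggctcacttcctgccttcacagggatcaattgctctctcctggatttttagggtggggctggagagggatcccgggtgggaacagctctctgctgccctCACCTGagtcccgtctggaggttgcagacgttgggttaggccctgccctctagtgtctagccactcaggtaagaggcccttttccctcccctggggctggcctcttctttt
Krt18: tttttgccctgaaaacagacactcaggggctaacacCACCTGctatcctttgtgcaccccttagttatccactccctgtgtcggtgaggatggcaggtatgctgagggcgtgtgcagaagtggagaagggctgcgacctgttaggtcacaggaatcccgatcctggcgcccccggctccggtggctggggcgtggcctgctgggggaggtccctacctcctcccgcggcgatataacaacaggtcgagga
CACCTG was found once in each of these windows, from base -44 to -39 in Krt7, from -111 to -106 in Krt8 and from -214 to -209 in Krt18, counted from the start. Of 32851 RefSeq promoters of the same length, 17.2% hold these letters on either strand. GGGCGG was found in Krt7 alone of the 3, at 4 places, 2 of them on the opposite strand, and 32.7% of all promoters hold it. The AP-1 letters TGANTCA were in none of the 3 windows, against 6.75% of all promoters. TATAAA was in none of them either, against 12.4%, and in Krt8 these letters ran across the annotated start, from base -1 to base 5. GC content was 66% in Krt7, 58% in Krt8 and 60.4% in Krt18, above the median of 52.4%. A match of letters is a description of the window and not a measured binding site.

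Wells fell into 2 ranges of total gene molecules. In 51 RNA-rich wells there were 51390 to 573648 gene molecules (median 98750), and in 45 low-RNA wells 8774 to 35543 (median 22234). The median share of mitochondrially encoded genes was 10.4% in the RNA-rich and 29.1% in the low-RNA wells. Wells C03, H03 and H12 stood apart in spike-in molecules (36465, 55740 and 926). The classes rest on gene molecules alone, without correction by spike-ins. H03 and C03 also had the most gene molecules (573648 and 319520). H12, with 16330, was classed as low-RNA, although its mitochondrial share of 7.6% was the lowest of that class and within the RNA-rich range (6.0 to 16.5%). A level below is the number of molecules of a gene per 10000 gene molecules of the well, so less of a gene and more of all others cannot be told apart. Embryonic stem cell markers were found in every well, with a summed level of at least 18.0 in the RNA-rich and 40.2 in the low-RNA wells.

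Krt18 and Krt8 were the abundant members. Over all 96 wells Krt18 gave 3999 molecules and Krt8 gave 3334, against 322 of Krt19 and 114 of Krt7. The other 47 keratin genes of the table, those of stratified epithelia and hair among them, were nearly silent: 38 had no molecule in any well and the rest had 137 together, so the 4 simple epithelial genes held 98.3% of keratin molecules. Krt10, a keratin of the upper epidermis, led these others with 75 molecules in 30 wells. Krt42 followed with 30 molecules in 9 wells, Krt17, known from skin appendages, with 13, Krt12, the corneal keratin, with 10, and Krt79 with 3. For Krt8, 73.5% of the molecules came from reads with 1 match in the genome and 884 molecules from reads with several matches, so its level is less certain than those of Krt18 (99.5% unique), Krt7 and Krt19 (both 100%).

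Krt8, the type II chain of the main pair, had a molecule in every well. Its level in RNA-rich wells ran from 0.402 through a median of 1.35 to 30.5, and in low-RNA wells from 0.612 through 2.42 to 7.98. Most RNA-rich wells thus lay below most low-RNA wells, while 9 RNA-rich wells lay above every low-RNA well. Krt18, its type I partner, showed the same shape. Its level ran from 0.867 through 1.82 to 43.2 in RNA-rich wells and from 0 through 3.04 to 10.3 in low-RNA wells. The only well without a Krt18 molecule was low-RNA well H12, which also had the fewest spike-in molecules and 1 molecule of Krt8. The low-RNA minima of both genes are thus those of H12.

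Krt19, an unusually short type I keratin, was lower and sparser. It was found in 36 of 51 RNA-rich wells (70.6%, exact Clopper-Pearson 95% interval 56.2 to 82.5%) and in 13 of 45 low-RNA wells (28.9%). Its level ran from 0 through a median of 0.156 to 3.85 in RNA-rich wells and from 0 to 0.773 in low-RNA wells, where the median was 0. Krt7, the type II keratin of ducts and trophoblast, was the rarest, in 22 RNA-rich wells (43.1%, interval 29.4 to 57.8%) and 8 low-RNA wells (17.8%). Its highest level was 1.96 in an RNA-rich and 0.761 in a low-RNA well. Depth touches these shares: with every well thinned to 8000 gene molecules, the expected share of wells with Krt19 was 23.2% in the RNA-rich and 11.4% in the low-RNA class, and with Krt7 10.3% and 7.38%.

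**Figure D1:**
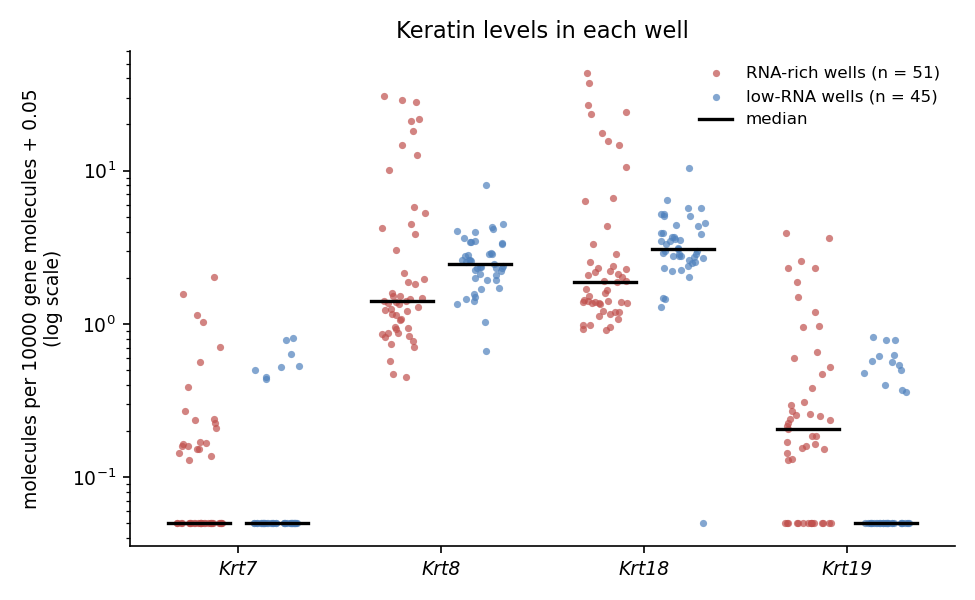
Level of each keratin gene in each well, as molecules per 10000 gene molecules with 0.05 added so that wells at 0 can be drawn on the log axis. Each point is a well, red for the 51 RNA-rich and blue for the 45 low-RNA wells, and the black line is the median; the RNA-rich medians of Krt8 (1.35) and Krt18 (1.82) lie below the low-RNA medians (2.42 and 3.04), while the highest wells are RNA-rich.

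The order of the members was the same in both classes. Krt18 exceeded Krt8 in 33 of 51 RNA-rich wells, with 13 the other way and 5 equal, and in 30 of 45 low-RNA wells, with 11 the other way and 4 equal. In molecules per length of the deposited transcript (1500 bases for Krt18 and 1905 for Krt8) the pooled ratio of Krt18 to Krt8 was 1.51 in RNA-rich and 1.69 in low-RNA wells. Without the length, these ratios were 1.19 and 1.33. Krt19 exceeded Krt7 in 26 RNA-rich wells, fell below it in 7 and equalled it in 18.

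Pooled over wells, Krt8 and Krt18 differed between the classes in the opposite direction to their medians. The pooled level of Krt8 was 2.11 times higher in RNA-rich than in low-RNA wells (Poisson 95% interval 1.86 to 2.41), and that of Krt18 was 1.88 times higher (1.68 to 2.11). Krt19 was 3.11 times higher (1.91 to 5.40), and Krt7 2.02 times higher with a wide interval (1.02 to 4.54) on 9 low-RNA molecules. Among 5150 genes with a mean level of at least 0.2, 9.53% had a pooled level at least 2 times higher in RNA-rich wells, and Krt8 and Krt19 were among them, while Krt18 was not and Krt7 had too low a mean level to be counted. These folds rested on 9 wells: without the RNA-rich wells with a Krt8 level of at least 10, the fold was 0.786 for Krt8, 0.758 for Krt18 and 0.722 for Krt7, now lower in RNA-rich wells, and 1.63 for Krt19 with an interval of 0.979 to 2.88. Of the 949 Krt8 and 1219 Krt18 molecules of the 42 wells left, C03 gave 142 and 202 and H03 gave 240 and 377. The lower mitochondrial share of RNA-rich wells enters the total. With mitochondrial genes left out of it, the folds of Krt8 and Krt18 over all RNA-rich wells were 1.67 and 1.49.

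The 9 wells were D08, H07, F12, A09, G10, A06, G12, A11 and H05. They were set apart after the values were seen, at a gap in Krt8 between 5.71 in C02 just below and 10.1 in H05 just above, so the Krt8 difference itself is a description. D08 had the most Krt8, with 473 molecules (level 30.5), and 581 molecules of Krt18 (37.5). H07 had 347 Krt8 molecules (29.02) and the highest Krt18 level, with 516 molecules (43.2). F12 differed in having more Krt8 than Krt18, 309 (28.1) against 255 molecules (23.2). A09 held 133 Krt8 (21.7) and 164 Krt18 molecules (26.8), and G10 held 278 (21.1) and 317 (24.01). The remaining 4 wells were lower for both genes. A06 had 164 Krt8 (18.0) and 160 Krt18 molecules (17.6), and G12 had 216 (14.6) and 218 (14.7). A11 had 65 (12.6) and 80 (15.6), and H05 had 147 (10.1) and 152 (10.4). The 9 wells with the most Krt8 per 10000 were also the 9 with the most Krt18, and none of the other 42 RNA-rich wells exceeded 6.57 for Krt18 (H03).

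Krt19 and Krt7 did not follow the pair evenly within these wells. Krt19 was highest in A06, with 35 molecules (3.85), then in A11 with 13 (2.53), F12 with 25 (2.27) and D08 with 35 (2.26). It was 1.82 in G10 (24 molecules), 1.44 in H05 (21), 1.14 in A09 (7) and 0.920 in H07 (11), and G12 had 2 molecules (0.135) beside 216 of Krt8 and 218 of Krt18. H07, highest for Krt18, was thus next to lowest for Krt19. Krt7 was highest in A09, with 12 molecules (1.96), and H07, with 18 (1.50). F12 had 12 molecules (1.09), G10 had 13 (0.985), A06 had 6 (0.659), D08 had 8 (0.516) and G12 had 5 (0.337). A11 and H05, the wells lowest for Krt8 among the 9, had no Krt7 molecule.

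Outside these wells the members were low but not uniform. In the other 42 RNA-rich wells Krt8 ran from 0.402 through 1.22 to 5.71 and Krt18 from 0.867 through 1.42 to 6.57. Krt7 did not exceed 0.219. Krt19 had a median of 0.111, and well D05 was far from it: its 45 Krt19 molecules (3.60) were the most of any well, beside 37 of Krt8 (2.96) and 17 of Krt18 (1.36). C02 and B07 had Krt8 without matching Krt18, 63 against 36 molecules in C02 and 53 against 20 in B07, and neither had a molecule of Krt7 or Krt19. C03 and H03, the wells with high spike-in totals, led the 42 for Krt18, at 6.32 and 6.57, and had Krt8 at 4.44 and 4.18. The 9 wells held 69.2% of Krt8, 66.7% of Krt18, 70.5% of Krt7 and 56.7% of Krt19 molecules of the RNA-rich class, against 17.4% of all its gene molecules. Since they were picked by Krt8, these shares are descriptions.

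The pairing of Krt8 and Krt18 was described by rank over wells, which share a culture, a chip, their gene totals and counting noise. Spearman's rho of the 2 levels was 0.605 over the 51 RNA-rich wells and 0.555 without the 2 wells of highest keratin level. Within the 42 wells with Krt8 under 10 it was 0.294, and within the 9 others 0.917. In the 45 low-RNA wells it was 0.0286, where the median well held few molecules of either gene. Pearson's r of log2(level + 1) was 0.934 over the 51 wells and 0.512 over the 42, and choosing the 42 by Krt8 narrows their range. The plot of Krt8 and Krt18 molecules by well shows both sets. The other pairs had rho from 0.381 (Krt7 with Krt19) to 0.505 (Krt7 with Krt8) in RNA-rich wells and at most 0.262 in the 42 wells. Within the 9 wells, Krt7 ranked with Krt18 (0.753) and Krt8 (0.695), whereas Krt19 did not rank with Krt8 (-0.0667), Krt18 (-0.117) or Krt7 (-0.218).

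**Figure D2:**
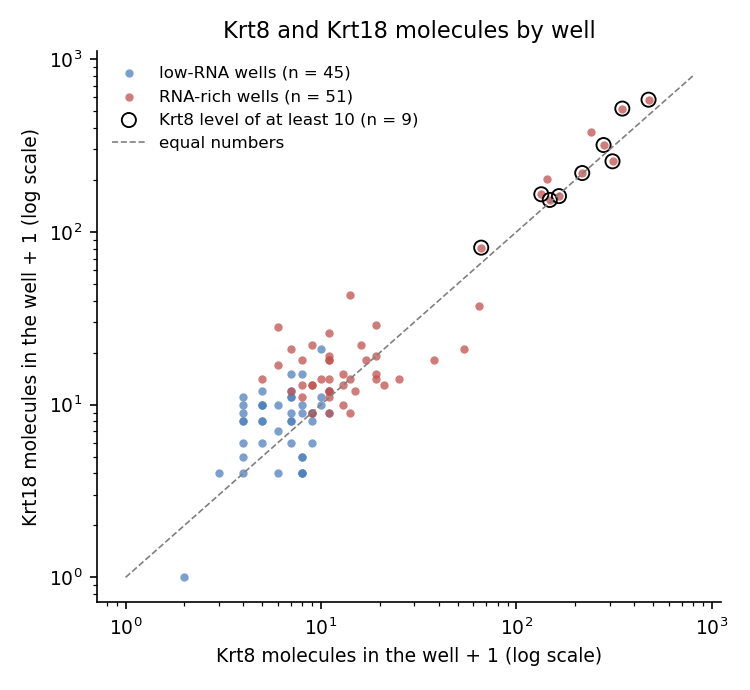
Krt18 against Krt8 molecules in each well, both with 1 added and on log axes; red points are the 51 RNA-rich and blue the 45 low-RNA wells, rings mark the 9 RNA-rich wells with a Krt8 level of at least 10, and the dashed line is equal numbers. The ringed wells lie close to the line, with Krt8 at 40.2 to 54.8% of the 2 genes' molecules, and the unringed RNA-rich wells scatter from 15.6 to 72.6%. Unringed RNA-rich wells hold a median of 10 Krt8 and 13.5 Krt18 molecules against 216 and 218, so counting widens their percentages. The dispersion of the Krt8 share, 1 for independent counting, was 4.48 in the ringed wells and 3.12 in the other 42.

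Type II and type I molecules came in similar numbers. Krt7 and Krt8 together gave 3186 molecules in RNA-rich wells against 3967 of Krt18 and Krt19, a ratio of 0.803 (95% interval 0.766 to 0.842). In low-RNA wells the ratio was 0.740 (0.628 to 0.871), from 262 and 354 molecules, so the intervals overlap. The ratio was 0.843 (0.80 to 0.89) in the 9 wells and 0.725 (0.67 to 0.79) in the other 42. Since the 9 were picked by Krt8, a type II gene, a higher ratio there is partly built into the choice. C03 and H03 also weigh on the 42: of their 949 Krt8 and 1219 Krt18 molecules, C03 gave 142 and 202 and H03 gave 240 and 377. Without C03 and H03 the ratio over all RNA-rich wells was 0.832. Krt8 made up 45.7% of Krt8 and Krt18 molecules in RNA-rich wells, with a median well at 44.9%, lowest in B09 (15.6%, 5 against 27 molecules) and highest in B07 (72.6%).

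The balance of Krt8 and Krt18 within a well was set beside that of spike-in pairs. Spike-ins are synthetic RNAs added to each well in fixed proportion, so their split shows the technical spread of the spike-ins themselves. The dispersion of the Krt8 share, which is 1 for independent counting, was 3.35 in RNA-rich wells, and 45 pairs of spike-ins of like mean had 1.50 to 3.98 (median 2.87), with 7 at or above the keratins. In the 42 wells with Krt8 under 10 it was 3.12, against 1.80 to 3.15 in 28 spike-in pairs, of which 1 was at or above it. In the 9 wells it was 4.48, above the 3 available spike-in pairs (1.62 to 3.73). The pooled Krt8 share lay inside the 95% counting interval of 41 of the 51 RNA-rich wells. In low-RNA wells the dispersion was 0.839, below all 66 spike-in pairs (1.87 to 4.63), and the pooled share lay inside the interval of all 45 wells. Spike-in pairs thus spread more than the keratin pair there. How well they stand for the technical spread of cell RNA was not tested.

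Between RNA-rich wells the amounts of Krt8 and Krt18 varied far beyond the spike-ins. The squared coefficient of variation (CV) was divided by that fitted to spike-ins of the same mean, giving a noise ratio. Over 7768 genes averaging at least 1 scaled molecule the median ratio was 1.36 and 18.8% had at least 2, which all 4 members did. Krt18 had a ratio of 47.4 (mean 65.6, CV 166% against 24.1% from the spike-in fit), and 4 genes had a higher one. Krt8 had 39.6 (mean 56.7, CV 161%), with 10 genes higher. Krt19 (5.51) and Krt7 (3.10) stood nearer to the other genes, with 208 and 506 genes above them. The 9 wells carried most of this: without them the ratio of Krt8 was 3.34 and that of Krt18 2.70, when 18.5% of genes had at least 2, and Krt19, with D05 still in, had 4.67.

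**Figure D3:**
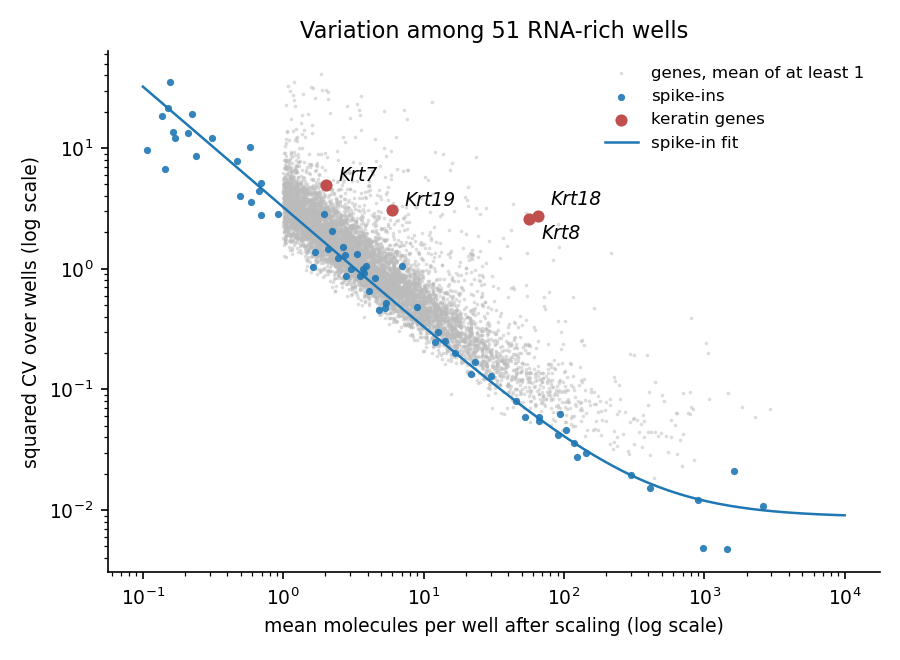
Squared CV against mean scaled molecules over the 51 RNA-rich wells, both on log axes, for genes with a mean of at least 1 (grey), spike-ins (blue, with the fitted line) and the 4 keratin genes (red). Krt8 and Krt18 lie 39.6 and 47.4 times above the line at their means, and Krt7 and Krt19 lie 3.10 and 5.51 times above it.

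In the low-RNA wells Krt8 and Krt18 varied less than the spike-in fit. Their noise ratios were 0.387 and 0.559, where the median of 2695 genes was 0.473 and 1% had at least 2. Squared CV times the mean was 1.24 for Krt8 and 1.79 for Krt18, beside medians of 1.53 and 1.57 over genes of like mean. For independent counting this product is 1 at equal gene totals and higher where totals differ, as they do here. In RNA-rich wells the same product was 148 for Krt8 against a median of 6.84 over 466 genes of like mean. Krt7 and Krt19 had means below 1 in low-RNA wells and were given no ratio there. The highest low-RNA well for Krt18, G11, held 14 molecules (10.3), with 6 of Krt8 (4.41) and 1 each of Krt7 and Krt19.

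The genes whose levels ranked most like the keratins were found by rho with the summed level of Krt8 and Krt18 over the 51 RNA-rich wells. Of 5321 genes with a mean level of at least 0.2, 52 had a rho of at least 0.5 (0.977%) and 7 of -0.5 or less (0.132%), around a median of 0.0187. In low-RNA wells 4 of 4841 reached 0.5 (0.0826%) and 2 reached -0.5 (0.0413%). In the 42 RNA-rich wells with Krt8 under 10, 6 of 5257 reached 0.5 (0.114%) and 3 reached -0.5 (0.0571%), so without the 9 wells few genes ranked with the keratins this closely.

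The 15 highest were taken among genes with a mean level of at least 1. Tpm1, an actin-binding tropomyosin, had the highest rho, 0.694, with levels of 8.17 to 39.1 (median 22.8) in the 9 wells and a median of 2.92 in the other 42, where 1 well reached 41.9. Cald1, the actin-binding caldesmon, had 0.691 and medians of 2.42 and 0.489. Cnn2 (0.671, a calponin), Tagln2 (0.663) and Tagln (0.627, transgelin), Myh9 (0.630, non-muscle myosin heavy chain) and Tpm2 (0.625) were among these 15 as well. Tagln had a median of 4.73 in the 9 wells against 0.430 in the others. Cldn6, a tight junction claudin, came after Cald1 with 0.684, at medians of 3.35 and 0.995. S100a6, a calcium-binding protein, was at 9.85 and 0.895 and was alone among the 15 in also reaching 0.5 in low-RNA wells (0.550). Sfn, the epithelial 14-3-3 sigma, had 0.597 and medians of 10.1 and 0.999, with 84.6% of its molecules from uniquely matching reads. Anxa2 (0.610, an annexin), Tubb6 (0.617, a beta tubulin), Cstb (0.620, cystatin B), Pdia3 (0.600, a disulfide isomerase) and Tnfrsf12a (0.581, the TWEAK receptor) completed the 15.

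Among the lowest ranks of genes with a mean level of at least 1 were those of Set, Tdh, Rps10 and Chchd10. Tdh, the threonine dehydrogenase known from mouse ES cells, had a rho of -0.566, with 0.0758 to 0.823 (median 0.404) in the 9 wells and a median of 1.55 in the others. Rps10, a ribosomal protein gene, had -0.523 and medians of 8.90 and 10.5. Chchd10, a mitochondrial protein gene, had -0.501 and medians of 0.412 and 1.602. Set (-0.582) had 8.29% of its molecules from uniquely matching reads and is uncertain.

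**Figure D4:**
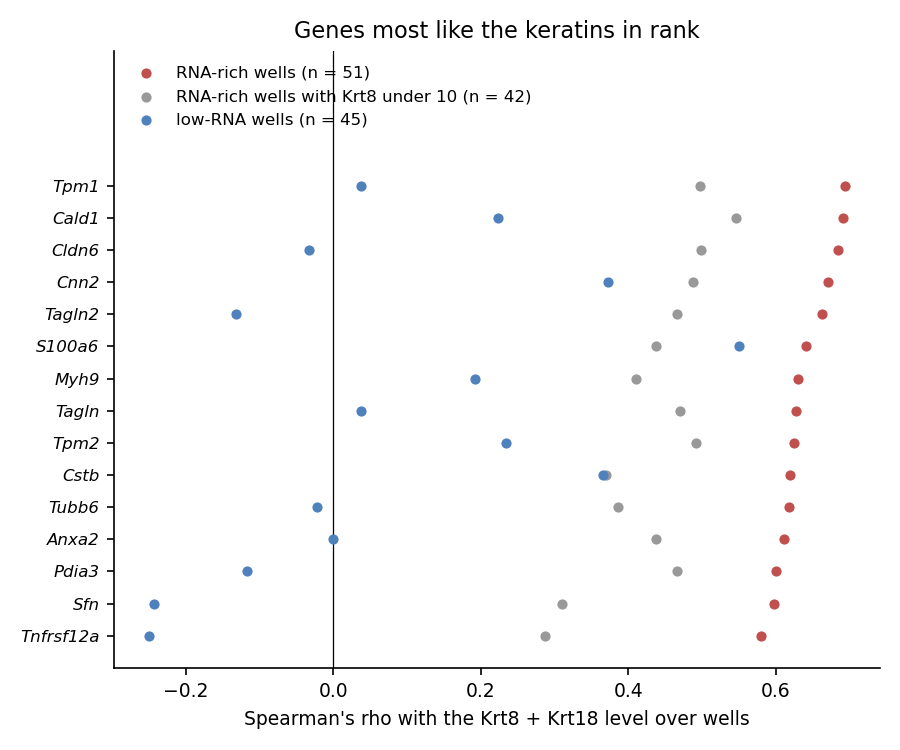
Spearman's rho of the 15 most alike genes with a mean level of at least 1 with the summed Krt8 and Krt18 level, over all 51 RNA-rich wells (red), over the 42 of them with Krt8 under 10 (grey) and over the 45 low-RNA wells (blue). From Tpm1 (0.694) to Tnfrsf12a (0.581) each gene's red value lies above its grey one. The genes were picked by the red value and the 42 wells by Krt8, so this order is largely set by the choice.

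Lists of other intermediate filament, desmosome and cytolinker, and epithelial junction genes had median rhos above that of all ranked genes (0.0187). Few members reached 0.5, as few of all ranked genes did (0.977%). Among 15 other intermediate filament genes, 6 had a mean level of at least 0.2 and none had a rho of 0.5 (median 0.246): Lmna, the lamin A/C gene, had 0.495, Nes (nestin) 0.455, Vim (vimentin) 0.288 and Lmnb1 0.109. Vim had a median of 0.902 in the 9 wells and 0.717 in the others. Among 16 desmosome and cytolinker genes 7 were ranked and none reached 0.5 (median 0.130). Plec, which links keratin filaments to adhesions, had 0.391 and Jup, the junctional plakoglobin, 0.370, and Jup had a median of 1.82 in the 9 wells and 0.509 in the others. Dst had 0.221, Pkp4 0.130 and Macf1 0.0595. Pnn went the other way, with -0.270 and medians of 0.549 in the 9 wells and 0.902 in the others. Of 10 ranked epithelial junction genes, 1 reached 0.5 (Cldn6; median 0.318). Cdh1, E-cadherin, had 0.389 and medians of 2.73 and 1.26, and Cldn4 had 0.462 and medians of 1.32 and 0.193, whereas Epcam had 0.118 and similar medians of 1.74 and 1.67.

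Regulators that act on simple keratin genes in other settings, AP-1 and Ets factors among them, had a median rho of 0.294 over the 9 of 23 genes with enough molecules, also above 0.0187, and none reached 0.5, beside 0.977% of all ranked genes. Jun had 0.419, Fosb 0.379, Junb 0.368 and Fos 0.351, and Sp1 had 0.119. Tfap2a and Elf5 had no molecule in any well. Most neighbours of the 4 genes had few or no molecules. Eif4b, a translation initiation factor gene on the far side of Krt18, had 1216 molecules, a rho of 0.104 with Krt18 and 0.169 with Krt8, and medians of 1.62 in the 9 wells and 1.61 in the others. Spryd3, farther along, had a rho of 0.267 with Krt18 on 25 molecules, 13 of them in 3 of the 9 wells. Krt78, next to Krt8, had no molecule, nor had Krt15 and Krt9 on either side of Krt19.

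Markers of cell types that make these keratins, or that could be carried over, were read beside them. Trophectoderm markers were near 0: their summed level was 0.137 to 2.61 in the 9 wells (median 0.585) and 0 to 2.06 in the others (median 0.385), none of 15 had a mean level of 0.2, and Elf5, Hand1 and Rhox9 were at 0 in every well. In A09, Gata3 had 11 molecules and Cdx2 had 2, and in G10 Cdx2 had 8. Primitive endoderm markers summed to 2.47 to 11.8 (median 6.62) in the 9 wells and 0.564 to 18.9 (median 1.85) in the others. Of 3 ranked, Sparc, a matrix glycoprotein that is not restricted to endoderm, had a rho of 0.545, and Lamb1, a laminin chain gene, had 0.370 with medians of 0.653 in the 9 wells and 0.292 in the others. Fst, the remaining one, had 0.068, with similar medians of 0.137 in the 9 wells and 0.145 in the others. Dab2, an endocytic adaptor gene, had 23 molecules in D08. Gata6 was at 0 in the 9 wells, and Sox17 and Sox7 were at 0 in all 96.

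Over the 51 RNA-rich wells, 4 of 12 ranked feeder fibroblast markers had a rho of at least 0.5 (Lgals1, S100a6, Tagln and Serpinh1), beside 0.977% of all ranked genes. The median was 0.371, and Vim (0.288) and Fn1 (0.194) were lower. In the 42 wells with Krt8 under 10 none of 11 reached 0.5 (median 0.315), beside 0.114% of all ranked genes. In low-RNA wells 1 of 11 did (S100a6), beside 0.0826%. The summed level of these markers was 20.4 to 84.5 (median 45.9) in the 9 wells, 6.62 to 206 (median 10.6) in the other RNA-rich and a median of 15.7 in the low-RNA wells. Genes more particular to fibroblasts were too sparse to compare: Postn was at 0 in all 96 wells and Thy1 had 1 molecule in all, in E02. The collagen gene Col1a1 had 15 molecules in G12, 1 each in D08 and G10 and none in the rest of the 9, and 14 in E02 and 0 in D02. The wells with the highest fibroblast sums, D02 (206) and E02 (144), had ordinary summed Krt8 and Krt18 levels of 3.07 and 3.12. The part of fibroblast RNA in the keratin levels was not tested.

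Embryonic stem cell markers ran against the keratins without vanishing. None of 12 ranked genes had a rho of 0.5 in either direction, and the median was -0.371. Their summed level was 18.0 to 94.9 (median 42.9) in the 9 wells, 24.04 to 225 (median 110) in the other RNA-rich wells, and a median of 54.1 in the low-RNA wells, so the sets overlap widely. Most of the sum in each of the 9 wells was Dppa5a, such as 32.4 of 42.9 in A06 and 84.3 of 94.9 in F12. Dppa5a had a rho of -0.430 and 10.3 to 84.3 (median 32.2) in the 9 wells against a median of 84.8, and none of the 9 reached that median. Zfp42, known as Rex1, had -0.453 and 1.74 to 2.82 in the 9 wells, against a median of 3.19 and a highest value of 30.1 in the others, and 59.3% of its molecules were uniquely matched. Nanog had -0.311 and was at 0.412 or less in each of the 9 wells, with a median of 0.607 in the others. Other named markers were negative as well: Tdgf1 had -0.396, Utf1 -0.288, Sox2 -0.269 and Klf4 -0.138. Nanog, Utf1, Sox2 and Klf4 were named as the highest rhos of this list, so the ranked markers not named lay lower. Of the 9 wells, 1 lay above the median of the others for Tdgf1, 2 for Utf1, 1 for Sox2 and 3 for Klf4.

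**Figure D5:**
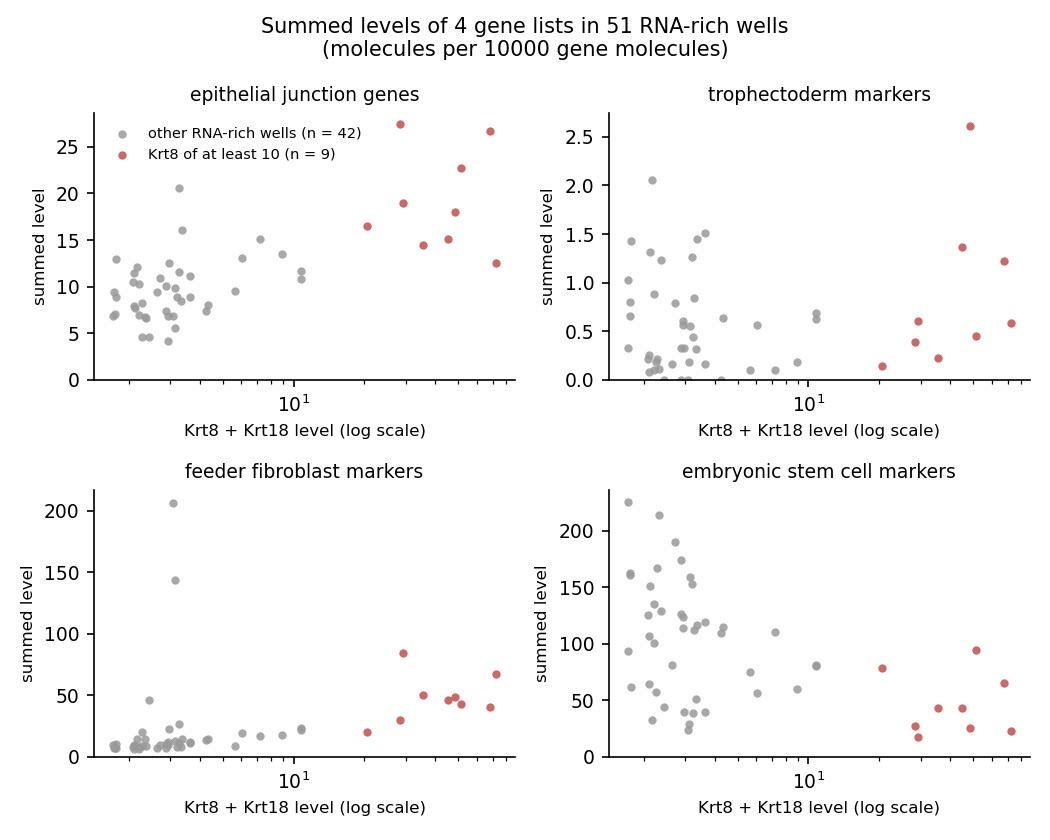
Summed level of 4 marker lists against the summed Krt8 and Krt18 level (log axis) in the 51 RNA-rich wells, all as molecules per 10000 gene molecules; red points are the 9 wells with Krt8 of at least 10 and grey points the other 42. Junction genes have a median of 18.0 in red and 9.14 in grey wells, fibroblast markers 45.9 and 10.6, stem cell markers 42.9 and 110, and trophectoderm markers reach at most 2.61 in red and 2.06 in grey wells. Among the stem cell markers, Dppa5a alone has medians of 32.2 in red and 84.8 in grey wells.

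Gene molecules and mitochondrial share of the keratin-high wells overlapped those of the other RNA-rich wells. The 9 wells held 51390 to 155134 gene molecules (median 119585) and the other 42 held 52812 to 573648 (median 98051). Spike-in medians were 8124 and 7954.5 molecules and mitochondrial medians 9.56% and 10.97%. Over the 51 wells, the summed Krt8 and Krt18 level had a rho of 0.0757 with gene molecules and of -0.218 with the mitochondrial share. Over the low-RNA wells the rho with gene molecules was -0.282.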

How the data were processed

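Molecule counts per feature and cell barcode were used as deposited by the authors, with 25914 features: 24264 genes, 96 spike-ins and 1554 repeat types. A read matching several places was counted at the exonic match nearest the 5' end, per the file headers. Bowtie and mm10 (GRCm38) are named, without version, per the submitters' processing notes. Each barcode matches 2 samples, the library as made after 21 PCR cycles and the same after 9 further cycles, and each column of the table combines them.

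Levels were molecules per 10000 gene molecules. Wells of at most 40000 and at least 50000 gene molecules were described apart. No doublet caller was run, and chamber images were not used here. Replicate cultures were not part of the data, so all 96 wells are 1 sample. Squared CV was fitted as a/mean + b by a gamma model with identity link to spike-ins averaging at least 0.1, which gave a = 3.23 and b = 0.00874 in RNA-rich wells. Spearman's rho with the summed Krt8 and Krt18 level was computed for genes with a mean level of at least 0.2. Fold intervals condition on summed Poisson counts, at a level of 95%.

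The genes and the 9 gene lists were chosen with earlier results of these data known. Named genes were the 15 highest and 5 lowest rho at a mean level of at least 1, up to 4 by level and 4 by rho from each list (mean of at least 0.2), the 5 most abundant other keratins and 3 neighbours a side; 1 of these genes is not reported here. Col1a1, Thy1, Postn, Cdx2, Gata3, Dab2 and the markers at 0 were named in addition, after their values were seen. The fit and the ranking were tested on simulated data. Scripts ran in Python 3.11.15 with statsmodels 0.14.6, scipy 1.17.1, pandas 2.3.3, numpy 2.4.6 and matplotlib 3.10.9.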

Additional observations from a re-analysis of the deposited data

How the results depend on the processing

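All wells are 1 culture on 1 chip, so no value carries a biological error. Of 94 alternative values for 16 results under 10 settings, 72 moved by less than their tolerance (1 counting interval for levels, ratios and folds, 0.1 in rho, 1.5 times for counts and noise ratios), and 22 did not. The alternative without the 9 wells of highest Krt8 was chosen after seeing the data. It turned the fold of RNA-rich over low-RNA wells to 0.786 for Krt8 and 0.758 for Krt18, and gave a rho of Krt8 and Krt18 of 0.294, 6 genes with a rho of at least 0.5, noise ratios of 3.34 (Krt8) and 2.70 (Krt18) and a type II to type I ratio of 0.725; fewer high wells are its construction. Without only the 2 wells of highest keratin level in each class, the folds were 1.67 for Krt8 and 1.42 for Krt18, the noise ratio of Krt18 in RNA-rich wells was 29.6 and that of Krt8 in low-RNA wells 0.212. With mitochondrially encoded genes out of the total, the folds were 1.67 and 1.49 and the low-RNA medians 3.51 (Krt8) and 4.50 (Krt18). As Pearson's r of log2(level + 1), the relation of Krt8 and Krt18 was 0.934 in RNA-rich and 0.280 in low-RNA wells, and with low-RNA wells thinned to the 8774 gene molecules of the shallowest its rho was -0.0726. The low-RNA count of 4 genes with a rho of at least 0.5 became 11 with stricter class limits, 7 with the spike-in total as denominator and 2 after thinning, and with that denominator the low-RNA noise ratio of Krt8 was 0.223; the cause was not tested. Depth limits Krt7 and Krt19 most, since 29 RNA-rich wells had no Krt7 molecule. No paired analysis was possible because each column combines both library forms that share a replicate number.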
